A study of Mus musculus with 5 samples.

Results

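The interferon regulatory factors are a family of transcription factors that share a DNA-binding domain with a repeat of tryptophans and bind variants of the interferon-stimulated response element. Some carry the signal of pathogen sensors to the interferon genes (Irf3, Irf5 and Irf7), others carry the signal of interferon receptors to its target genes (Irf1 and Irf9) or hold it back (Irf2), and Irf4 and Irf8 direct the formation of immune cells. Irf8 is needed for monocytes and for cross-presenting dendritic cells. The 8 genes Irf1, Irf2, Irf3, Irf4, Irf5, Irf7, Irf8 and Irf9 were taken by exact symbol from 55291 symbols in each count file.

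The libraries are RNA-seq of mouse bone marrow samples labelled as monocytes, with 2 Tet2-mutant samples (replicates 2 and 3) and 3 wild-type samples (replicates 1, 2 and 3). Tet2 encodes an enzyme that oxidises methylcytosine in DNA. The kind of mutation, the age of the mice, any treatment, the way the cells were isolated and whether each sample is a separate animal were not given in the sources used here. A p-value here therefore reflects how these samples spread, which may be technical.

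The gene counts summed to 17459808 and 60508381 in Tet2-mutant replicates 2 and 3, and to 53789308 to 72414875 in the wild-type libraries. Tet2-mutant replicate 2 held transcripts of both sexes, with Xist at 27.4 CPM (counts scaled to library size) and the Y-linked Ddx3y at 14.7 CPM. Xist stood at 21.1 CPM in Tet2-mutant replicate 3 and at 32.3 CPM in wild-type replicate 3, with Ddx3y at 1.22 and 0.163 CPM there, and wild-type replicates 1 and 2 had Ddx3y at 71.4 and 69.1 CPM with Xist at 0.188 and 0.179 CPM. All 8 markers of monocytes (among them Ly6c2, Ccr2 and Csf1r) were detected, with sums of 2732 and 1364 CPM in the mutant libraries and 1246 to 1433 CPM in the wild-type libraries. Markers of neutrophils (Ngp, Camp and Ltf among 9) summed to 53060 and 23170 CPM in the mutant and 47350 to 59220 CPM in the wild type, so the libraries did not hold monocyte transcripts alone. In such bulk samples fewer cells of a type and less RNA per cell cannot be told apart. Summed markers of macrophages, T cells, NK cells, B cells and plasma cells were higher in both mutant libraries than in any wild-type library. So were those of conventional and plasmacytoid dendritic cells and of pancreatic acinar cells. Not every marker moved with the sum of its list. Both mutant libraries lay above every wild-type library for 3 of 7 NK cell markers and 3 of 6 plasma cell markers. Klrb1c of the NK cell list had 1.66 and 1.55 CPM in the mutant and 3.59 to 12.99 CPM in the wild type. Sdc1 of the plasma cell list had 4.2 and 5.04 CPM in the mutant and 7.12 to 24.54 CPM in the wild type. Neither passed (edgeR adjusted p = 0.0877 and 0.137), and both were named here after their values were seen. Siglech of the plasmacytoid list had 8.6 and 1.2 CPM in the mutant and 25.0 to 33.5 CPM in the wild type. The largest part of that list's mutant sums (393 and 1252 CPM) came from Ly6d (222 and 946 CPM). The part of these cells in the results that follow was not tested. All 8 macrophage markers, all 6 acinar markers, 5 of 8 conventional dendritic cell markers and 5 of 8 T cell markers passed the test. So did 2 of 8 plasmacytoid dendritic cell, 3 of 8 B cell, 1 of 6 plasma cell and 2 of 7 NK cell markers. Of the monocyte markers 3 of 8 passed, all higher, and of the neutrophil markers 0 of 9. The monocyte marker F13a1, named after its value was seen, had 236 and 68.5 CPM in the mutant. In the wild type it had 351 to 436 CPM, and it did not pass (edgeR adjusted p = 0.0905). Of all genes tested 15.0% passed. The macrophage sums were 4292 and 3149 CPM in the mutant and 248 to 314 CPM in the wild type, and the acinar sums 434 and 1208 CPM in the mutant and 1.98 to 2.97 CPM in the wild type. Fewer genes had a count in the mutant libraries (18047 and 17944, against 24532 to 26207 in the wild type), although Tet2-mutant replicate 3 was about as deep as the wild type. Across genes, log2 CPM correlated at 0.885 between the mutant libraries, at 0.838 to 0.910 between mutant and wild-type libraries and at 0.975 to 0.984 among wild-type libraries. The part of these differences in the results was not tested either.

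As a group the factors took a larger share of the counts in the mutant libraries. Reads of the 8 genes made up 0.165% and 0.150% of all counts in Tet2-mutant replicates 2 and 3. In wild-type replicates 1, 2 and 3 they made up 0.110%, 0.102% and 0.0962%. Such a share is a level on total counts, so it depends on what else each library held. On total counts the groups were apart for Irf1, Irf3, Irf5 and Irf7, and overlapped for Irf2, Irf4, Irf8 and Irf9. All 8 passed the filter on low counts. Irf1, Irf3, Irf5 and Irf7 rose, 4 of 8, where 10.6% of the 17062 genes tested rose (adjusted p under 0.05 by edgeR's quasi-likelihood test, with Benjamini-Hochberg adjustment; 15.0% of all genes passed in either direction). None of the 8 fell, where 4.43% of all genes fell, and at an unadjusted p under 0.05 the counts were 5 higher and 0 lower among the 8 factors, against 3503 higher and 3182 lower among all 17062 genes. DESeq2 and limma-voom each also called 4 higher and 0 lower. Of all genes they called 2972 and 1837 higher and 2137 and 1365 lower. Over the wild type, the mutant's median log2 fold change was 1.12 for the 8 factors and -0.07 for all genes. Both mutant libraries lay above every wild-type library for 7 of the 8, where this held for 22.9% of all genes.

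The scaling between libraries weighs on these values. The levels are CPM on library sizes adjusted by TMM, a method that assumes most genes to be equal between libraries. Scaling on plain total counts moved the median over all genes by -0.507 (log2). There 2 of 8 factors rose, Irf1 and Irf7, where 6.92% of all genes rose, and 4 of 8 had both mutant libraries above every wild-type library, where 14.1% of all genes did. The call also depended on the libraries. Without wild-type replicates 1, 2 and 3 in turn, 1, 2 and 2 factors rose, as did 616, 870 and 842 of all genes, against 1801 with every library. Without Tet2-mutant replicate 2 or 3, 6 rose each time, as did 4904 and 3781 of all genes, but such a fit has a lone mutant library, whose spread is taken to be that of the wild type. With the Xist class of the library as a term, which wild-type replicate 3 alone shares with the mutant libraries, 0 of 8 passed edgeR's test (5 higher and 0 lower at an unadjusted p under 0.05), and of all genes 101 rose and 0 fell. The log2 fold changes in that fit were 2.0 for Irf1, 1.08 for Irf3, 1.22 for Irf5 and 2.17 for Irf7, near those without the term.

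**Figure D1:**
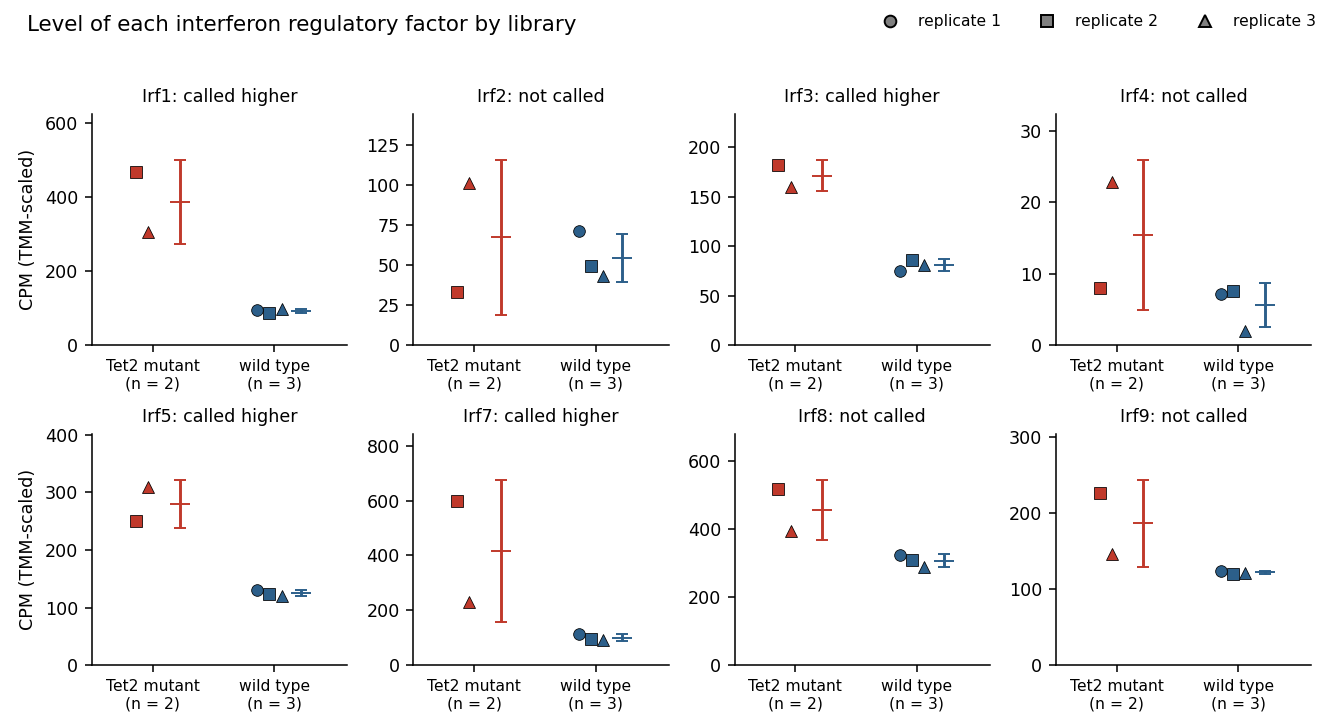
Level of each of the 8 factors in every library (vertical axes, CPM on TMM-adjusted library sizes, each axis from 0), with the 2 Tet2-mutant libraries in red and the 3 wild-type libraries in blue. Symbols mark the replicate number, and the bars beside them give the mean ± SD. Irf1, Irf3, Irf5 and Irf7 show the widest gaps between the groups, and Irf4, Irf8 and Irf9 show narrow ones. Only Irf2 overlaps, and the 2 mutant libraries of Irf4 lie far apart.

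Irf1 is induced by interferon-gamma and activates genes of antigen presentation and defence. It is the factor whose rise was seen in the most fits. Its gene lies on chromosome 11 (53770014 to 53778374, plus strand, GRCm38). Irf1 had 467 and 306 CPM in Tet2-mutant replicates 2 and 3, against 95.7, 87.1 and 96.8 CPM in wild-type replicates 1, 2 and 3. The lower mutant library was 3.16 times the highest wild-type library, and the wild-type libraries differed among themselves by at most 1.11 times. Its log2 fold change was 2.05 ± 0.26 (SE; edgeR adjusted p = 0.0054), and the means were 386.5 ± 113.5 CPM in the mutant (SD, n = 2) and 93.2 ± 5.30 CPM in the wild type (SD, n = 3). On total counts the levels were 337 and 274 CPM in the mutant and 101 to 112 CPM in the wild type, with a log2 fold change of 1.51 (edgeR adjusted p = 0.00877). Irf1 rose in 13 of 14 alternative fits, with log2 fold changes from 1.51 to 2.32. The exception was the fit with the Xist class as a term, where it did not pass (edgeR adjusted p = 0.161).

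Irf2 binds the same elements as Irf1 and mostly restrains it. Its gene is on chromosome 8 (46739732 to 46847458, plus strand). Irf2 had 33.0 and 101 CPM in Tet2-mutant replicates 2 and 3, against 71.5, 49.3 and 42.8 CPM in the wild-type libraries. Tet2-mutant replicate 2 was the lowest and replicate 3 the highest of the 5, so the groups overlapped on both sides. The log2 fold change of 0.30 ± 0.48 did not pass (edgeR adjusted p = 0.658), was -0.14 on total counts, -0.73 without Tet2-mutant replicate 3 and 0.89 (edgeR adjusted p = 0.0424) without Tet2-mutant replicate 2. The ratio of Irf1 to Irf2 counts within a library was 14.1 and 3.02 in Tet2-mutant replicates 2 and 3, against 1.34, 1.77 and 2.26 in wild-type replicates 1, 2 and 3. Both mutant libraries thus held more Irf1 relative to Irf2 than any wild-type library, but they differed more from each other than the wild-type libraries did.

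The windows of 250 bases before the RefSeq starts of the 8 genes (GRCm38.p6, 11 windows) were searched for the gamma-activated site, an element of interferon-gamma response, as TTCNNNGAA, and for the core of the interferon-stimulated response element, as GAAA, any 2 bases and GAAA again, on both strands. The first motif reads the same on either strand. It was found in 3 of the 8 genes, Irf1, Irf2 and Irf8, where 8.13% of 27025 genes hold it. The second was found in Irf2 alone of the 8, where 3.46% of genes hold it, and the Irf2 matches do not overlap. The stretches with matches are shown because Irf1 and Irf2, which moved differently, both hold the first motif, as does Irf8. Capitals mark the matches, which are letters found and not shown to be bound. The Irf1 window is chr11:53769764-53770013, plus strand, with its match at bases -90 to -82 before the start. The Irf8 window is chr8:120736108-120736357, plus strand, with matches at -171 to -163 and -153 to -145. Of the Irf2 window the first 60 bases are given, chr8:46739495-46739554, plus strand, which also lie in an exon of the annotated gene Gm16675.
Irf1: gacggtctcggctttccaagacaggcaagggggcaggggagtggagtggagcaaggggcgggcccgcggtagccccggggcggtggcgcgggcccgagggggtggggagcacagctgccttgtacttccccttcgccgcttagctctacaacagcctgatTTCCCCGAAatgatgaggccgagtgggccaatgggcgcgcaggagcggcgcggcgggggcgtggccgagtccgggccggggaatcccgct
Irf8: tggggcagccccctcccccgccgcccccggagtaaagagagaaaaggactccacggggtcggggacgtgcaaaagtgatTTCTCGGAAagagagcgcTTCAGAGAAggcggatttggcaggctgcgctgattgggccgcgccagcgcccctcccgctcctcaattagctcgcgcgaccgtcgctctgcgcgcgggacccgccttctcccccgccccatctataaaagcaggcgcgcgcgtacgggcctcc
Irf2: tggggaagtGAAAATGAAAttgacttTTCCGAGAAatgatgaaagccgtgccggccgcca

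Among the factors that act below pathogen sensors, Irf3, Irf5 and Irf7 all rose. Irf3 and Irf7 are phosphorylated by the kinases TBK1 and IKK-epsilon and switch on interferon genes. Irf3 is made in most cells at all times, while Irf7 is itself induced by interferon. Irf3 (chromosome 7, 44997648 to 45002848, plus strand) had 183 and 160.0 CPM in Tet2-mutant replicates 2 and 3, against 74.9, 86.4 and 81.2 CPM in the wild-type libraries. The mutant libraries were near each other and clear of the wild type. The log2 fold change of Irf3 was 1.08 ± 0.23 (edgeR adjusted p = 0.0283). On total counts the Irf3 levels were 132 and 143 CPM in the mutant and 87.4 to 100.1 CPM in the wild type, still apart, with a log2 fold change of 0.56 that did not pass (edgeR adjusted p = 0.0829).

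Irf7 (chromosome 7, 141262706 to 141266481, minus strand) had 599 and 232 CPM in Tet2-mutant replicates 2 and 3, against 114, 94.3 and 92.6 CPM in the wild-type libraries. Both mutant libraries were above the wild type, and replicate 2 held 2.58 times the level of replicate 3, while the wild-type libraries differed by at most 1.23 times. Its log2 fold change was 2.05 ± 0.39 (edgeR adjusted p = 0.021). It was 1.21 (edgeR adjusted p = 0.00436) without Tet2-mutant replicate 2 and 2.57 (edgeR adjusted p = 0.00038) without Tet2-mutant replicate 3. Without wild-type replicate 1 the call was lost (edgeR adjusted p = 0.0509). The ratio of Irf7 to Irf3 counts was 3.28 and 1.45 in Tet2-mutant replicates 2 and 3, against 1.52, 1.09 and 1.14 in the wild type, so that it stood above every wild-type library in Tet2-mutant replicate 2 alone.

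Irf5 works below MyD88 and drives inflammatory cytokine genes in macrophages and dendritic cells. Irf5 (chromosome 6, 29526625 to 29541871, plus strand) had 250 and 309 CPM in Tet2-mutant replicates 2 and 3, against 131, 124 and 120 CPM in wild-type replicates 1, 2 and 3. Here replicate 3 was the higher mutant library, and both were clear of the wild type. Irf5 rose by a log2 fold change of 1.16 ± 0.23 (edgeR adjusted p = 0.0232). On total counts Irf5 stood at 180 and 277 CPM in the mutant and 136 to 153 CPM in the wild type, with a log2 fold change of 0.66 (edgeR adjusted p = 0.082). The calls of both Irf3 and Irf5 were lost without any single wild-type library, with adjusted p of 0.0577 to 0.0686 for Irf3 and Irf5 together (edgeR), while their log2 fold changes stayed between 1.17 and 1.36. They were kept without either mutant library. Exons of Irf5 share 411 bases, 14.1% of its exonic length, with Tnpo3 on the other strand. Irf1, Irf3, Irf7 and Irf9 share 1.19% to 3.40% of theirs with neighbours, none of which was called. Strand-specific counting was not stated, and Tnpo3 itself was not higher (log2 fold change -0.47, edgeR adjusted p = 0.227).

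Irf9 is the DNA-binding part of the complex that type I interferon activates. Irf9 (chromosome 14, 55603571 to 55610030, plus strand) had 227 and 146 CPM in Tet2-mutant replicates 2 and 3, against 124, 120 and 122 CPM in wild-type replicates 1, 2 and 3. The mutant libraries lay above the wild type, with replicate 3 only 1.17 times the highest wild-type library. The log2 fold change of 0.61 ± 0.26 did not pass (edgeR adjusted p = 0.131). On total counts it was 0.06, and Tet2-mutant replicate 3 (131 CPM) lay below all 3 wild-type libraries (139 to 145 CPM). The ratio of Irf7 to Irf9 counts was 2.64 and 1.59 in the mutant libraries, against 0.915, 0.786 and 0.760 in the wild type. It was thus higher in both mutant libraries than in any wild-type library. The transcripts differ in length (1916 bases for Irf7, 2459 for Irf9), so the ratio does not rank the 2 genes within a library.

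Irf4 and Irf8 are close relatives that pair with the factors PU.1 and BATF on composite DNA elements. Irf8 (chromosome 8, 120736358 to 120756694, plus strand) had 518 and 393 CPM in Tet2-mutant replicates 2 and 3, against 325, 309 and 288 CPM in the wild-type libraries. The groups were apart on this scale, with a log2 fold change of 0.57 ± 0.24 that did not pass (edgeR adjusted p = 0.126). On total counts they interleaved, at 374 and 352 CPM in the mutant and 379, 358 and 327 CPM in the wild type, with a log2 fold change of 0.03. Whether Irf8 was higher in the mutant at all therefore depended on the scaling. The ratio of Irf1 to Irf8 counts, which does not depend on it, was 0.901 and 0.779 in the mutant libraries, against 0.295, 0.282 and 0.337 in the wild type. The ratio of Irf5 to Irf8 counts was 0.482 and 0.786 in the mutant libraries, against 0.405, 0.403 and 0.417 in the wild type.

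Irf4, needed by plasma cells and by some dendritic cells, was the scarcest member. Irf4 (chromosome 13, 30749226 to 30766976, plus strand) had 101 and 1239 counts in Tet2-mutant replicates 2 and 3, or 8.0 and 22.9 CPM, against 7.16, 7.54 and 2.06 CPM in wild-type replicates 1, 2 and 3. Tet2-mutant replicate 2 was close to wild-type replicates 1 and 2, Tet2-mutant replicate 3 was high and wild-type replicate 3 was low. The log2 fold change of 1.47 ± 0.74 did not pass (edgeR adjusted p = 0.175), and was 2.03 (edgeR adjusted p = 0.0292) without Tet2-mutant replicate 2 and 0.51 (edgeR adjusted p = 0.568) without Tet2-mutant replicate 3. Markers of B cells had their highest and lowest sums in the same libraries as Irf4. The 8 markers, Cd79a and Cd79b among them, summed to 918 and 7054 CPM in the mutant and 627, 604 and 131 CPM in the wild type. Of these 8 markers 3 rose, and Fcer2a and Cr2, named after their values were seen, stood at 0.277 to 3.97 CPM in the mutant libraries and 0.604 to 18.9 CPM in the wild type. Plasma cell markers (Jchain, Sdc1 and Prdm1 among 6) summed to 2426 and 3509 CPM in the mutant and 475, 1499 and 774 CPM in the wild type, lowest in wild-type replicate 1. Plasmacytoid dendritic cell markers, like those of B cells, had their highest sum in Tet2-mutant replicate 3 (1252 CPM) and their lowest in wild-type replicate 3 (146 CPM). The ratio of Irf4 to Cd79b counts was 0.0221 and 0.00934 in Tet2-mutant replicates 2 and 3. In wild-type replicates 1, 2 and 3 it was 0.0481, 0.0450 and 0.0448. The part of any of these cell types in the Irf4 level was not tested.

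**Figure D2:**
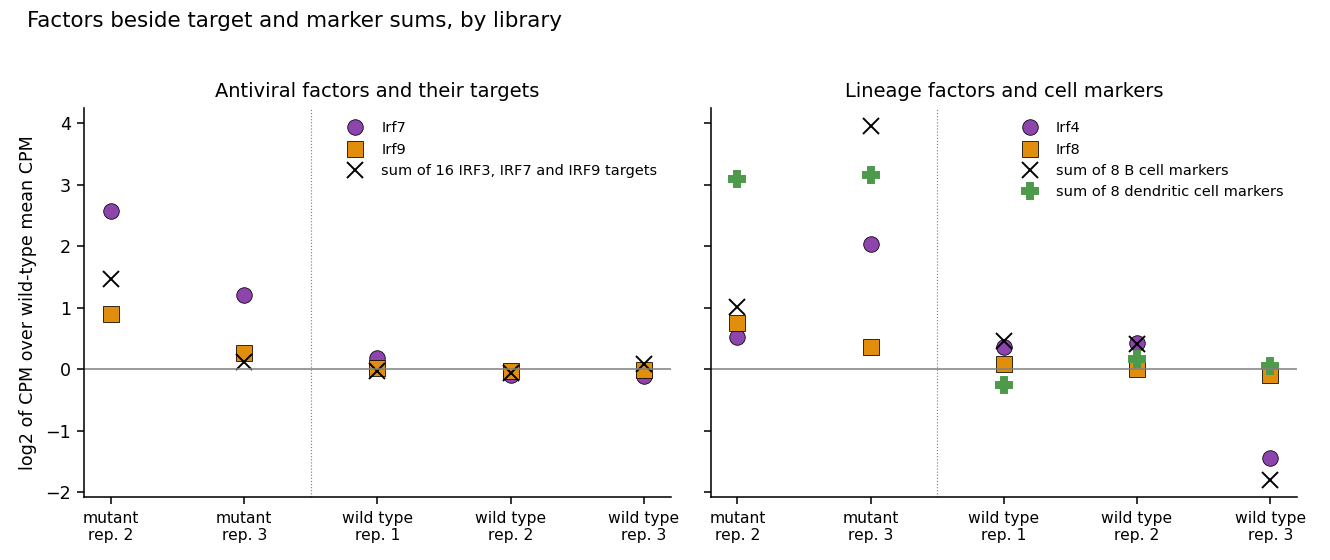
Levels in the 5 libraries as log2 of the CPM over the mean of the 3 wild-type libraries (vertical axis), mutant libraries left of the dotted line and wild-type libraries right of it. Left, Irf7 and Irf9 with the sum of 16 target genes. Right, Irf4 and Irf8 with the sums of 8 B cell and 8 dendritic cell markers. Irf4 and the B cell sum share their high library (Tet2-mutant replicate 3) and their low library (wild-type replicate 3). The sum of plasmacytoid dendritic cell markers, not drawn, has the same high and low libraries.

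Levels of different genes can be compared only per length, for which CPM was divided by the length of each gene's longest principal transcript in kilobases. In the wild type Irf8 was the most abundant, at 108 ± 6.55 CPM per kilobase (SD, n = 3), and Irf4 the least, at 1.17 ± 0.643. Between them came Irf5 (55.9 ± 2.59), Irf7 (52.3 ± 6.17), Irf9 (49.6 ± 0.922), Irf1 (43.6 ± 2.48), Irf3 (39.8 ± 2.86) and Irf2 (21.9 ± 6.01). The wild-type ranges of Irf5 and Irf7, of Irf7 and Irf9, and of Irf1 and Irf3 overlapped, so those neighbours are not separable. In the mutant the order began with Irf7 (217 ± 136, SD, n = 2), Irf1 (181 ± 53.1), Irf8 (160.0 ± 31.0) and Irf5 (125 ± 18.7). The mutant range of Irf7 (313 and 121 CPM per kilobase in replicates 2 and 3) overlapped those of Irf1, Irf8 and Irf5. In Tet2-mutant replicate 3 Irf7 lay below each of them, so its first place rested on replicate 2. The mutant ranges of Irf1 and Irf8 also overlapped, and Irf5 ended just below Irf8. Irf3 (84.3 ± 7.86), Irf9 (75.8 ± 23.2), Irf2 (26.9 ± 19.3) and Irf4 (3.24 ± 2.21) followed, the ranges of Irf3 and Irf9 overlapping. Irf8 was thus first in all 3 wild-type libraries, Irf7 in Tet2-mutant replicate 2 (313 CPM per kilobase) and Irf1 in Tet2-mutant replicate 3 (143, with Irf8 and Irf5 both at 138).

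**Figure D3:**
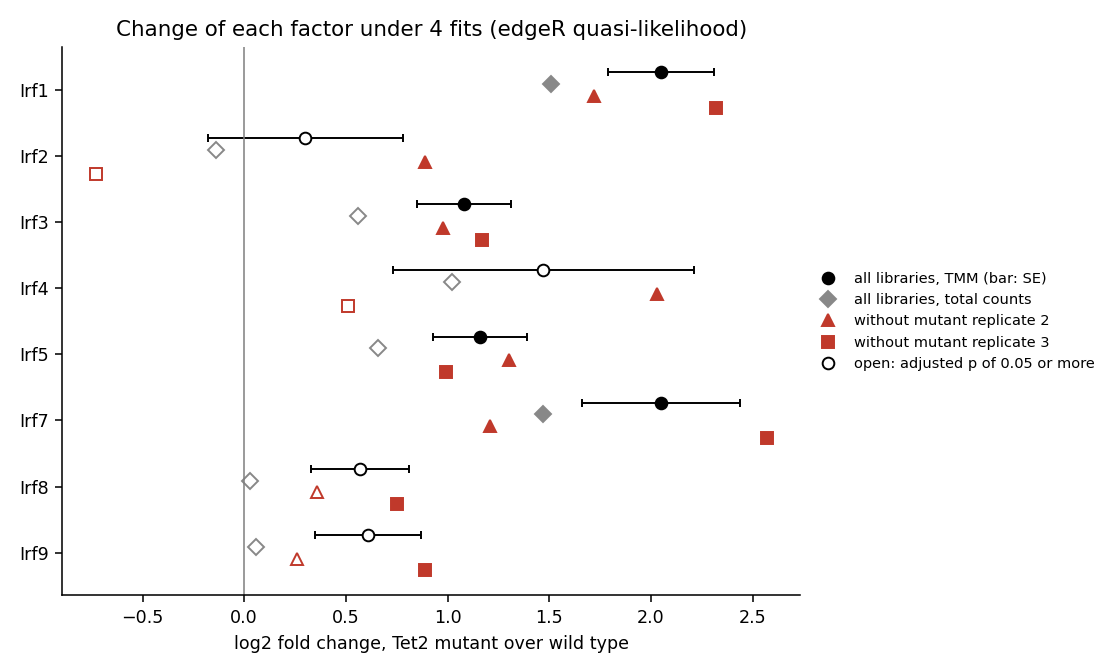
Log2 fold change of each factor, Tet2 mutant over wild type (horizontal axis), in edgeR fits with all libraries under TMM scaling (circle, bar for the SE), with total-count scaling (diamond), and without Tet2-mutant replicate 2 (triangle) or 3 (square). Filled symbols passed an adjusted p under 0.05. Irf1 and Irf7 are filled in all 4 fits, and Irf2 changes side with the mutant library left in.

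The genes with the most similar profile over the 5 libraries were sought among 8604 genes, as the root mean square distance of centred log2 CPM. Distances describe 5 libraries only. For Irf1 they were Hint3 (0.093) and Gbp3 (0.098), the second being an interferon-inducible GTPase. For Irf7 they were Slc26a2 (0.081) and Il6ra (0.086), which like Irf7 were highest in Tet2-mutant replicate 2. For Irf9 they were Gsdmd (0.041), the pore-forming protein of pyroptosis, and Ube2j1 (0.042). Irf3 was nearest to Nrbf2 (0.013) and Abt1 (0.034), Irf5 to Rmdn1 (0.040) and Ech1 (0.051), and Irf8 to Xab2 (0.031) and Tor1aip1 (0.036). Irf2 was nearest to Hvcn1 (0.100) and Smarca2 (0.109). Irf4 had the most distant neighbours, Cnn3 (0.236) and Pou2af1 (0.244), of which Pou2af1 is a B cell coactivator.

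The receptors, adaptors and kinases that activate the factors were mostly not called. Of 22 genes 5 rose, 1 fell and 16 did not pass, with a median log2 fold change of 0.59. Of all genes tested 10.6% rose and 4.43% fell. The risen genes belong to the endosomal and STING routes. Among them Tlr9, named after its value was seen, was low in every library but Tet2-mutant replicate 3. It had 0.396 and 10.45 CPM in Tet2-mutant replicates 2 and 3 and 0.0834 to 0.228 CPM in the wild type (edgeR adjusted p = 0.0442). Sting1, the adaptor of cytosolic DNA sensing, had 359 and 215 CPM in the mutant libraries and 42.7, 41.1 and 51.7 CPM in the wild type (log2 fold change 2.67 ± 0.30, edgeR adjusted p = 0.00316). Tlr7, an RNA receptor of endosomes, had 41.9 and 40.6 CPM in the mutant and 7.87 to 10.7 CPM in the wild type (log2 fold change 2.17 ± 0.35, edgeR adjusted p = 0.0119). Unc93b1, which brings such receptors to endosomes, and Slc15a4, which joins them to Irf5, rose by 1.26 ± 0.24 and 1.59 ± 0.24 on the log2 scale (edgeR adjusted p = 0.0209 and 0.010). Cgas, named after its value was seen, was the gene that fell, with 6.26 and 3.40 CPM in the mutant and 16.8 to 21.2 CPM in the wild type (edgeR adjusted p = 0.0456). The kinase genes Tbk1 and Ikbke, also named after their values were seen, had log2 fold changes of -0.12 and 0.20 and did not pass (edgeR adjusted p = 0.743 and 0.81). Without wild-type replicates 1, 2 and 3 in turn the list held 4, 3 and 2 rises, against 616, 870 and 842 over all genes. The call of Cgas was lost without any single wild-type library.

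Among interferons, their receptors and receptor signalling, 5 of 16 tested genes rose and none fell, with a median of 0.70. Of all genes tested 10.6% rose and 4.43% fell. At an unadjusted p under 0.05 (edgeR) the list had 9 higher and 0 lower, against 3503 and 3182 of all 17062 genes. DESeq2 and limma-voom called 0 of the list lower, against 2137 and 1365 of all genes. Ifngr1, the ligand-binding chain of the interferon-gamma receptor, had 1275 and 968 CPM in the mutant libraries and 318, 285 and 306 CPM in the wild type (log2 fold change 1.89 ± 0.24, edgeR adjusted p = 0.00563). The feedback inhibitors Socs1 and Socs3 rose by 3.12 ± 0.49 and 2.45 ± 0.41 (edgeR adjusted p = 0.0114 and 0.0141). Of the interferon genes on the list, Ifng had 8.16 and 15.2 CPM in the mutant and 0.942 to 1.88 CPM in the wild type and rose (edgeR adjusted p = 0.0291, named after its value was seen). Ifnb1 and Ifna4 were too low to test, at 0 in both mutant libraries. Without wild-type replicate 3, 3 genes of the list rose, as did 842 of all genes.

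Among partner factors and regulators the Batf family rose. Of 22 genes 6 rose and 1 fell, with a median of 1.03, where 10.6% of all genes rose and 4.43% fell. Batf3, the partner of Irf8 in cross-presenting dendritic cells, had 107 and 67.2 CPM in the mutant libraries and 1.22, 2.06 and 1.57 CPM in the wild type (log2 fold change 5.75 ± 0.42, edgeR adjusted p = 0.000848). Its relatives Batf and Batf2 rose by 3.04 ± 0.28 and 4.66 ± 0.60 (edgeR adjusted p = 0.0016 and 0.00545). Id2, needed by dendritic cells and innate lymphocytes, rose by 2.79 ± 0.28 (edgeR adjusted p = 0.00218). Irf2bp1, a corepressor that binds Irf2, fell to 16.7 and 23.0 CPM in the mutant, against 51.3 to 57.8 CPM in the wild type (log2 fold change -1.48 ± 0.31, edgeR adjusted p = 0.0294, named after its value was seen). Dendritic cell markers (Zbtb46, Flt3 and, shared with the partner list, Batf3 among 8) moved with these genes, 5 of 8 having risen, and summed to 753 and 791 CPM in the mutant and 73.6 to 99.7 CPM in the wild type. Their part was not tested. Without wild-type replicates 1, 2 and 3 in turn, 5, 6 and 6 partner genes rose, as did 616, 870 and 842 of all genes. The call of Irf2bp1 was lost without any single wild-type library.

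Genes described as targets of the factors rose unevenly. Of 14 tested targets of Irf1, 10 rose and none fell, with a median of 2.30, where 10.6% of all genes rose and 4.43% fell. At an unadjusted p under 0.05 (edgeR) 10 were higher and 0 lower, against 3503 and 3182 of all 17062 genes. DESeq2 and limma-voom called 0 of these targets lower, against 2137 and 1365 of all genes. B2m, the light chain of MHC class I, had 5366 and 4702 CPM in the mutant libraries and 638, 745 and 820 CPM in the wild type (log2 fold change 2.78 ± 0.26, edgeR adjusted p = 0.00181). Casp1, the protease of inflammasomes, and the GTPase gene Gbp2 rose by 2.31 ± 0.25 and 2.38 ± 0.28 (edgeR adjusted p = 0.00263 and 0.00401). Il12b, a subunit of interleukin-12 and also a target of Irf8, had 44.0 and 12.4 CPM in the mutant and 0.0804 to 0.228 CPM in the wild type (edgeR adjusted p = 0.0032). Of 12 targets of Irf8, 6 rose and none fell, with a median of 2.21, against the same shares of all genes. At an unadjusted p under 0.05 (edgeR) 7 were higher and 0 lower, and DESeq2 and limma-voom called 0 lower. Cst3, a cathepsin inhibitor typical of dendritic cells, rose by 2.55 ± 0.25 and the cytokine gene Il18 by 3.94 ± 0.30 (edgeR adjusted p = 0.00189 and 0.000884). Klf4 and Cybb, targets of Irf8 in monocytes and named after their values were seen, had log2 fold changes of -0.44 and 0.22 and did not pass (edgeR adjusted p = 0.525 and 0.668). The lists share genes, and all were written with earlier results of these data known.

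The 16 antiviral targets of Irf3, Irf7 and Irf9 did not move as a block. Of these 5 rose and none fell in edgeR's test, with a median of 1.65, where 10.6% of all genes rose and 4.43% fell. At an unadjusted p under 0.05 the counts were 11 higher and 1 lower, against 3503 and 3182 of all 17062 genes. DESeq2 and limma-voom each called 1 of the 16 lower, and 2137 and 1365 of all genes. Levels of the 16 targets summed to 1734 and 684 CPM in Tet2-mutant replicates 2 and 3, against 614, 602 and 666 CPM in the wild type. Much of the wild-type sum came from Cmpk2 and Rsad2, named after their values were seen, which did not pass (edgeR adjusted p = 0.0628 and 0.544). Cmpk2 had 106 and 38.4 CPM in the mutant and 175 to 217 CPM in the wild type, and Rsad2 had 169.9 and 25.6 CPM in the mutant and 99.9 to 246.5 CPM in the wild type. Of the 16 genes 8 had both mutant libraries above every wild-type library, where this held for 22.9% of all genes. Ccl5 was higher in Tet2-mutant replicate 3, at 16.9 and 107.5 CPM in the mutant and 6.73 to 7.09 CPM in the wild type, while Irf7 and Irf9 were higher in replicate 2. Isg15, named after its value was seen, had 183 and 21.8 CPM in the mutant libraries and 22.3 to 38.6 CPM in the wild type. Oas1a, an RNA sensor, had 200.5 and 99.6 CPM in the mutant and 21.4 to 29.6 CPM in the wild type (log2 fold change 2.61 ± 0.36, edgeR adjusted p = 0.0069). The Oas genes resemble each other, so its counts are uncertain. Ifi44, an interferon-induced gene, and the chemokine genes Cxcl10 and Ccl5 rose by 4.60 ± 0.86, 4.62 ± 0.62 and 3.18 ± 0.69 (edgeR adjusted p = 0.0197, 0.00631 and 0.030). Without wild-type replicate 1, 2 of the 16 rose, as did 616 of all genes.

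**Figure D4:**
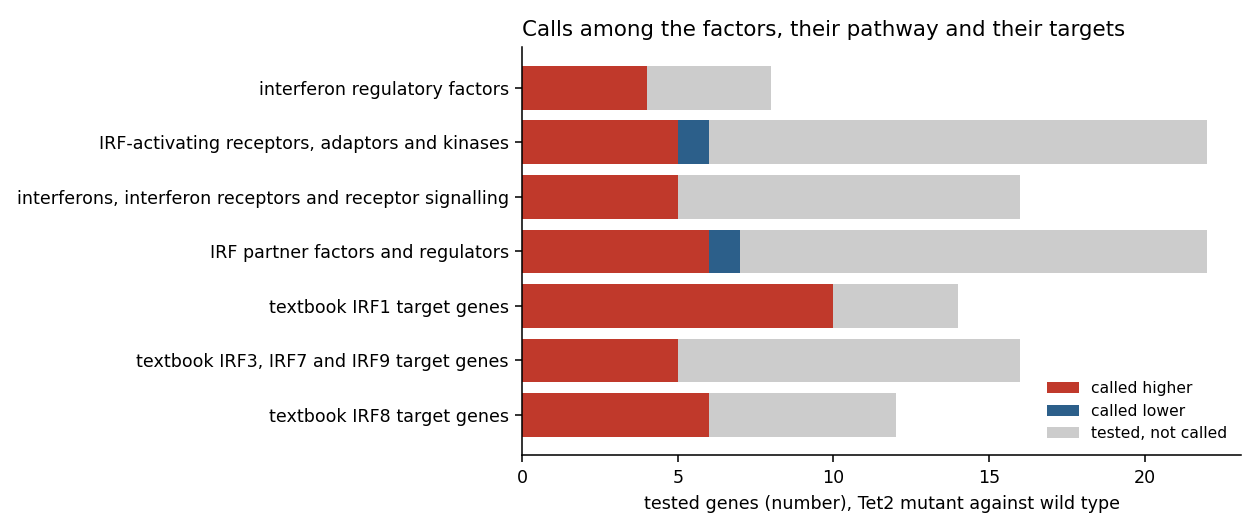
Number of tested genes (horizontal axis) called higher, called lower or not called in the Tet2 mutant against the wild type, for the 8 factors and 6 gene lists around them. Of the factors 4 were called higher, and of the 14 tested Irf1 targets 10 were, where 10.6% of all genes were.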

How the data were processed

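The authors deposited raw gene counts, 1 file per library. Per the submitters' processing notes, Trimmomatic and STAR were used with mm10, their versions, the read counter, the annotation and the strand setting being not given in the sources used here. Per the labels' protocols, libraries were made from total RNA with a SMARTer mRNA-Seq kit, and no molecular identifiers are named, so errors cover counting and the spread between these libraries only.

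The analysis used DESeq2 1.42.0, limma 3.58.1 and edgeR 4.0.16 under R 4.3.3. The filter filterByExpr left 17062 genes. Counts were scaled by TMM and tested with edgeR (quasi-likelihood F). P-values were adjusted by Benjamini-Hochberg across the 17062 genes, with calls at an adjusted p under 0.05. The SE is the absolute log2 fold change over the square root of F. Positions and lengths are from GENCODE M21 (GRCm38), and promoter sequences are from RefSeq (GRCm38.p6, all 8 genes matched). The members and lists were chosen with earlier results of these data known. Named were the 8 members, up to 4 called genes with the smallest p per list, the 2 nearest profiles per member (mean of 10 CPM or more) and markers in list order. Other genes are named as chosen after their values were seen, as are Xist and Ddx3y. Alternatives were other scalings, filters and tests, the replicate block, the Xist class (above or below 10 CPM) as a term, and each library left out.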

Additional observations from a re-analysis of the deposited data

How the results depend on the processing

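Directions held for 110 of 112 values of the 8 factors over the alternatives. The exceptions were Irf2 with total-count scaling (-0.14) and without Tet2-mutant replicate 3 (-0.73; 0.89 without Tet2-mutant replicate 2), and the cause was not tested. Of these values 90 stayed on the same side of the threshold, 16 lost a call and 4 gained one. For 22 named pathway genes, 307 of 307 values were positive and 31 lost a call. These genes were picked for small p-values in the main fit, where all were called higher. Positive signs in refits of the same libraries were therefore likely from the start.

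Factors called higher numbered 2 with total-count scaling, 2 with the replicate block, 0 with the Xist class as a term, and 1 to 6 with 1 library left out. The Xist class term left 2 pathway genes higher and 0 lower. Pathway genes, 32 higher and 2 lower, came to 1 lower with the replicate block. With 1 library left out they came to 26 to 49 higher and 0 to 11 lower. Over all genes, 1801 were higher and 755 lower. With total-count scaling 1181 were higher and 2877 lower, with no filter 3059 and 1498, with the replicate block 752 and 232, with the Xist class 101 and 0, and with DESeq2 2972 and 2137. Upper-quartile scaling gave 1419 higher and 1837 lower. Lower genes numbered 472 with 1 CPM required in 3 libraries and 1365 with limma-voom. With 1 library left out the range was 616 to 4904 higher and 6 to 5958 lower.

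Replicate numbers 2 and 3 occur in both genotypes. Deviations of the same-numbered libraries from their genotype means correlated at -0.027 and -0.024 across genes. With 2 mutant libraries the mutant deviations mirror each other, so these values cannot decide whether the numbers mark a pairing. The main fit took none, and the fit with the replicate block called 2 factors higher. Depth limits Irf4 most, at 101 counts in the shallower mutant library. Irf8 and Irf9 passed without Tet2-mutant replicate 3 (0.75 and 0.89, edgeR adjusted p = 0.031 and 0.0139) and not without Tet2-mutant replicate 2 (0.36 and 0.26, edgeR adjusted p = 0.184 and 0.284).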
